A study of Mus musculus with 8 samples.

Results

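The recombinase genes Rag1 and Rag2 and the terminal transferase gene Dntt were followed in bulk RNA sequencing of mouse cells whose label is pro-B, an early stage of B cell development. They were chosen by name, as the enzymes that cut and extend antigen receptor gene ends, and all 3 were found among the 55487 genes of the deposited count table and passed the filter on low counts that left 18884 genes for testing. Of 8 libraries, 4 carried the label CD25_KO (below, libraries labelled knockout) and 4 the label WT (wild type), and Il2ra is the gene that encodes CD25, an interleukin-2 receptor chain. Strain, age, and the design of the deleted allele are not given in the sources used here, nor is it stated that replicates are different mice. The p-values therefore refer to the spread among these libraries, which may be technical.

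RAG1 and RAG2 form the enzyme that cuts DNA at recombination signals beside the V, D and J segments of the antigen receptor genes, with RAG1 carrying the catalytic site and RAG2 an essential cofactor that binds a histone mark of active chromatin. Terminal transferase, TdT, adds nucleotides without a template at the cut ends before they are joined, which diversifies the junctions. Both Rag genes are active while the heavy chain is assembled in pro-B cells and again while the light chain is assembled in small pre-B cells, whereas Dntt in mouse B cells is mainly a gene of the pro-B stage.

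Each library summed to between 43974037 and 57988772 fragment counts. The targeted gene was not lower in the labelled knockout libraries by more than their spread: Il2ra had 181 ± 43.1 CPM in the libraries labelled knockout and 193 ± 35.9 CPM in wild type (SD, n = 4 each; edgeR adjusted p = 0.849). A sum over all exons cannot show the loss of single exons, and every direction below rests on the labels. B lineage genes were present, with Cd79a, a signalling chain of the B cell receptor, at 2160 ± 262 CPM in the libraries labelled knockout and 1977 ± 193 CPM in wild type. Kit, a surface receptor of pro-B cells, was low, between 0.701 and 1.69 CPM in the libraries labelled knockout and between 0.896 and 3.20 CPM in wild type. Cd34 lay under 1 CPM in every library, and Ms4a1, which encodes CD20 and appears at later B cell stages, had 657 ± 44.2 CPM in the libraries labelled knockout and 769.6 ± 87.4 CPM in wild type. Ighd, which encodes the IgD heavy chain of later B cells, had 164.5 ± 15.1 CPM in the libraries labelled knockout and 161 ± 27.6 CPM in wild type. Cd2 and Cd22, also listed as markers of small pre-B and later stages, averaged 265 and 242 CPM in the libraries labelled knockout. In wild type they averaged 249.8 and 229 CPM. Low Kit and Cd34 beside these levels of Il2ra, Ms4a1, Ighd, Cd2 and Cd22 go against a pro-B label in both groups. Some other markers went the other way. The pro-B markers Igll1 and Vpreb1 averaged 86.5 and 61.4 CPM in the libraries labelled knockout, and 163 and 112 CPM in wild type. Cr2 and Fcer2a, markers of later stages, averaged 4.20 and 15.6 CPM in the libraries labelled knockout, and 5.04 and 19.3 CPM in wild type. The stage was thus not settled, and pro-B is used below only as the name the labels give.

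In the files' build (mm10, the same assembly as GRCm38) Rag1 (ENSMUSG00000061311.6) spans chromosome 2 from 101638282 to 101649501 on the minus strand, and Rag2 (ENSMUSG00000032864.4) spans chromosome 2 from 101624718 to 101632529 on the plus strand. Their 3′ ends face each other with 5752 bases between them. Of the 6608 exonic bases of Rag1, 6528 lie in a single exon, and of the 3424 of Rag2, 3208 do. Dntt (ENSMUSG00000025014.13) lies on chromosome 19 from 41029275 to 41059525 on the plus strand, in 13 merged exons of 2292 bases, and starts 34739 bases from the start of Blnk, which encodes an adaptor of the pre-B cell receptor. A further gene, B230118H07Rik (also called Iftap), runs through the Rag locus on the minus strand and shares 80 exonic bases with Rag1 (1.21% of its exons) and 208 with Rag2 (6.07%). Fragments in the bases shared with Rag2 cannot be told apart without strand. Rag1 lies on the same strand as B230118H07Rik, so strand would not separate the bases they share. B230118H07Rik itself had 25.7 ± 4.86 CPM in the libraries labelled knockout and 24.3 ± 5.70 CPM in wild type.

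**Figure D1:**
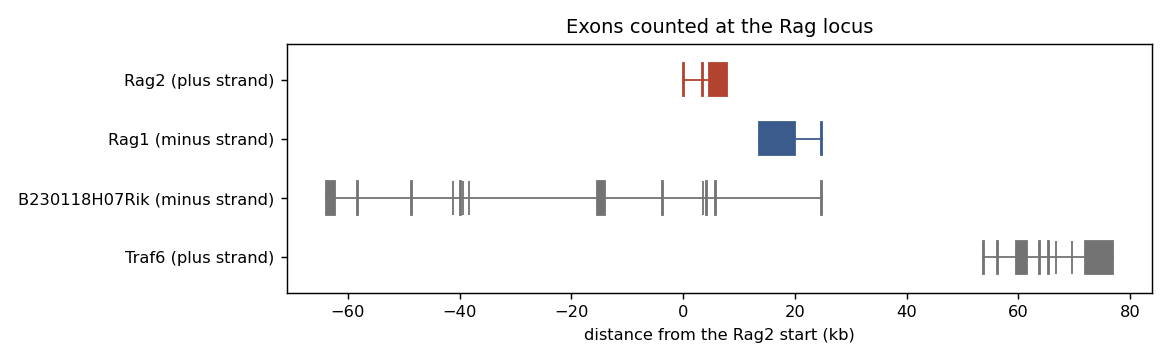
Exons of Rag2, Rag1 and their neighbours B230118H07Rik and Traf6 as counted, by distance in kb from the Rag2 start (boxes, merged exons; lines, introns). Rag2 and Rag1 point towards each other, most of each gene is a single exon, and the minus-strand gene B230118H07Rik reaches the first exon of Rag1.

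The promoter windows of the 3 genes are shown so that the sequence in front of each transcript can be set beside its values, and that of Igll1 because it was the gene whose levels were most like those of Dntt. Igll1 encodes a chain of the surrogate light chain, which pairs with the new heavy chain in the pre-B cell receptor. Each window runs from 250 bases before to 50 bases after the RefSeq start on GRCm38.p6, 5′ to 3′ on the gene's strand, at chr2:101649483-101649782 (minus) for Rag1, chr2:101624462-101624761 (plus) for Rag2, chr19:41029025-41029324 (plus) for Dntt and chr16:16863936-16864235 (minus) for Igll1. Capitals mark matches on either strand to CCAAT (bound by NF-Y), CANNTG (the E-box of E proteins), TGGGAA (the core bound by Ikaros) and CCCNNGGG (a core bound by EBF1).
Rag1: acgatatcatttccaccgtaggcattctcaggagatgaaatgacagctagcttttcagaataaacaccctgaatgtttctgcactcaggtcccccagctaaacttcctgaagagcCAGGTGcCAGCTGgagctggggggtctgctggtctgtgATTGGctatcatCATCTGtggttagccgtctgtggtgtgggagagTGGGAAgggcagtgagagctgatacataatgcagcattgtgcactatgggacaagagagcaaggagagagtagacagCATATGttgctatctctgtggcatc
Rag2: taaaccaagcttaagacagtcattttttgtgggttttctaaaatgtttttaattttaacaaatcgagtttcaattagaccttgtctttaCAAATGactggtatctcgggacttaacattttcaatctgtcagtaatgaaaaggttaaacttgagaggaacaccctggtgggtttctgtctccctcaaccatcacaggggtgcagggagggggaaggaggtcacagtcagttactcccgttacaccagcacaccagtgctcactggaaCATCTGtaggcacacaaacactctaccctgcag
Dntt: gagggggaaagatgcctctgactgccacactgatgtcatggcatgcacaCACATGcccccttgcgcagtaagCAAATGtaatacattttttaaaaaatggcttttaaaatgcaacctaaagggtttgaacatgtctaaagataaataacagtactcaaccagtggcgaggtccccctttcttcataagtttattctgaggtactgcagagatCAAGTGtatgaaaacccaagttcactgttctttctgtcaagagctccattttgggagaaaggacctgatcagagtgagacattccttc
Igll1: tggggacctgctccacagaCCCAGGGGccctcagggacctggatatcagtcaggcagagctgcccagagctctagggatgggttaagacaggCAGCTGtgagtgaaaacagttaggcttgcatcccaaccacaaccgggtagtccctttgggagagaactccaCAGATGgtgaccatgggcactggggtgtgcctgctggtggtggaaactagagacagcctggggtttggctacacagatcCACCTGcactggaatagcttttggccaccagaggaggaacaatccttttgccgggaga

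The Rag1 window held 4 matches to CANNTG, 1 to CCAAT and 1 to TGGGAA. The Rag2 window held 2 matches to CANNTG, the Dntt window 3, and the Igll1 window 3 with 1 to CCCNNGGG; in Rag2 and Dntt no other marked motif matched. Among 32851 windows of the same length, CANNTG was found in 72.3%, CCAAT in 37.4%, TGGGAA in 25.6% and CCCNNGGG in 13.7%, so the E-box matches are common. Neither GTAAACA (a FOXO site), CTTTGA (a TCF and LEF site) nor TATAAA (the TATA box) matched in these windows, against 3.65%, 16.0% and 13.6% of all windows. A match is a string of letters and not a shown binding site.

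Rag1, the catalytic subunit, had 205, 220, 347 and 255 CPM in labelled knockout libraries 1 to 4, against 389, 382, 316 and 208 CPM in wild type libraries 1 to 4. CPM are counts scaled to a common library size with TMM factors. Wild type library 4 lay below all but the lowest labelled knockout library, and labelled knockout 3 lay among the wild type libraries, so the groups overlapped. The means were 257 ± 63.6 CPM in the libraries labelled knockout and 324 ± 84.02 CPM in wild type (SD, n = 4 each). The log2 fold change, labelled knockout over wild type, was -0.33 ± 0.22 (SE; 95% interval from -0.83 to 0.16; edgeR quasi-likelihood test, adjusted p = 0.518).

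Rag2, the cofactor subunit, had 156, 181, 161 and 208 CPM in labelled knockout libraries 1 to 4, against 197, 219, 199 and 183 CPM in wild type libraries 1 to 4. Labelled knockout 1, 2 and 3 lay below every wild type library, and labelled knockout 4 lay above wild type 1, 3 and 4. The means were 176 ± 23.4 CPM in the libraries labelled knockout and 199.6 ± 14.7 CPM in wild type (SD, n = 4 each). The log2 fold change was -0.18 ± 0.11 (SE; 95% interval from -0.43 to 0.07; adjusted p = 0.493 in the edgeR test). Rag2 was the steadiest of the members, with the highest library 1.40 times the lowest over all 8, against 1.898 times for Rag1.

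Dntt varied most. It had 34.8, 80.2, 16.1 and 37.4 CPM in labelled knockout libraries 1 to 4, against 119, 67.7, 30.5 and 100.4 CPM in wild type libraries 1 to 4. Labelled knockout 2 stood above wild type 2 and 3, and wild type 3 below labelled knockout 1, 2 and 4, so the groups overlapped here too. The means were 42.1 ± 27.1 CPM in the libraries labelled knockout and 79.3 ± 38.8 CPM in wild type (SD, n = 4 each), a ratio of 0.531. The log2 fold change was -0.91 ± 0.50 (SE; 95% interval from -2.02 to 0.20; edgeR adjusted p = 0.4501). The highest library was 7.35 times the lowest, while counting error alone was at most 3.52% of a library's value, from 806 to 5602 Dntt counts. For Rag1 and Rag2 it was at most 1.003% and 1.15%.

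None of the 3 passed the test, and none had groups without overlap. None had an unadjusted p under 0.05 in the edgeR fit of all libraries for genotype alone. Of all 18884 genes tested, 0% passed at an adjusted p under 0.05, 12.6% had an unadjusted p under 0.05 (2388 genes; 5.53% with higher and 7.11% with lower values in the libraries labelled knockout) and 6.79% had groups without overlap. DESeq2 called 6 genes and limma-voom 0, none of them a member. Without wild type library 4, edgeR called 363 genes, and the adjusted p was 0.141 for Rag1, 0.329 for Rag2 and 0.439 for Dntt. In bulk libraries fewer cells with a transcript and less transcript per cell cannot be told apart.

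**Figure D2:**
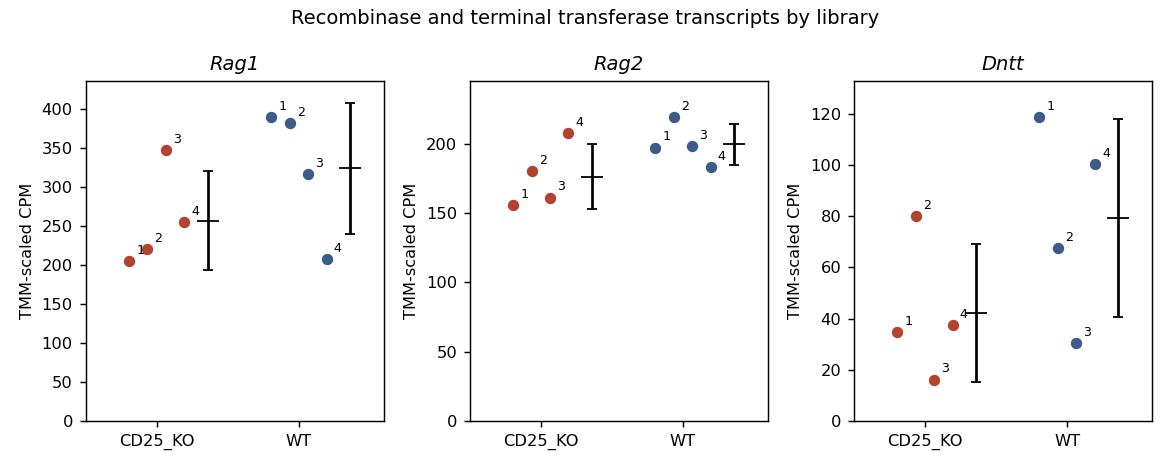
TMM-scaled CPM of Rag1, Rag2 and Dntt (vertical axes from 0) in the 4 libraries labelled CD25_KO and the 4 labelled WT; points are libraries with their replicate number, bars the mean and SD. The groups overlap for each gene, and Dntt spreads from 16.1 to 119 CPM.

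Per kilobase of exon, Rag2 was the most abundant of the 3. It had 51.5 ± 6.83 CPM per kb in the libraries labelled knockout and 58.3 ± 4.28 in wild type, Rag1 had 38.9 ± 9.63 in the libraries labelled knockout and 49.0 ± 12.7 in wild type, and Dntt had 18.4 ± 11.8 in the libraries labelled knockout and 34.6 ± 16.9 in wild type (CPM per kb, SD, n = 4 each). The ranges over libraries of neighbours in this order overlapped in both groups. By these means Rag2 lay above 92.7% of the genes tested in the libraries labelled knockout and above 93.4% in wild type, Rag1 above 90.4% in the libraries labelled knockout and 92.1% in wild type, and Dntt above 81.5% in the libraries labelled knockout and 89.2% in wild type. Within a library, the level of Rag1 per kb was below that of Rag2 in 6 of 8 libraries, the exceptions being labelled knockout 3 (1.11 times) and wild type 1 (1.02 times). Dntt was below Rag2 per kb in 8 of 8 libraries, from 0.14997 to 0.898 times its level, and below Rag1 in 6 of 8, the exceptions being labelled knockout 2 (1.05 times) and wild type 4 (1.39 times).

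The ratio of one member to another within a library is free of library scaling. The log2 ratio of Rag1 to Rag2 CPM was 0.39, 0.29, 1.11 and 0.30 in labelled knockout libraries 1 to 4, against 0.98, 0.80, 0.67 and 0.18 in wild type libraries 1 to 4. Labelled knockout 3 was thus above every wild type library and the other labelled knockout libraries lay between wild type 4 and wild type 3. The group means were 0.52 ± 0.39 in the libraries labelled knockout and 0.66 ± 0.34 in wild type (SD, n = 4 each), a difference of -0.14 ± 0.26 (SE; exact permutation test, two-sided, p = 0.6). The log2 ratio of Dntt to Rag1 was -2.80 ± 1.22 in the libraries labelled knockout and -2.16 ± 1.004 in wild type (exact permutation p = 0.457). That of Dntt to Rag2 was -2.28 ± 0.89 in the libraries labelled knockout and -1.50 ± 0.91 in wild type (exact permutation p = 0.257). Adjusted over the 3 ratios, each p was 0.6 (Benjamini-Hochberg), and 4 against 4 libraries allow no p below 0.0286 in this exact test.

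**Figure D3:**
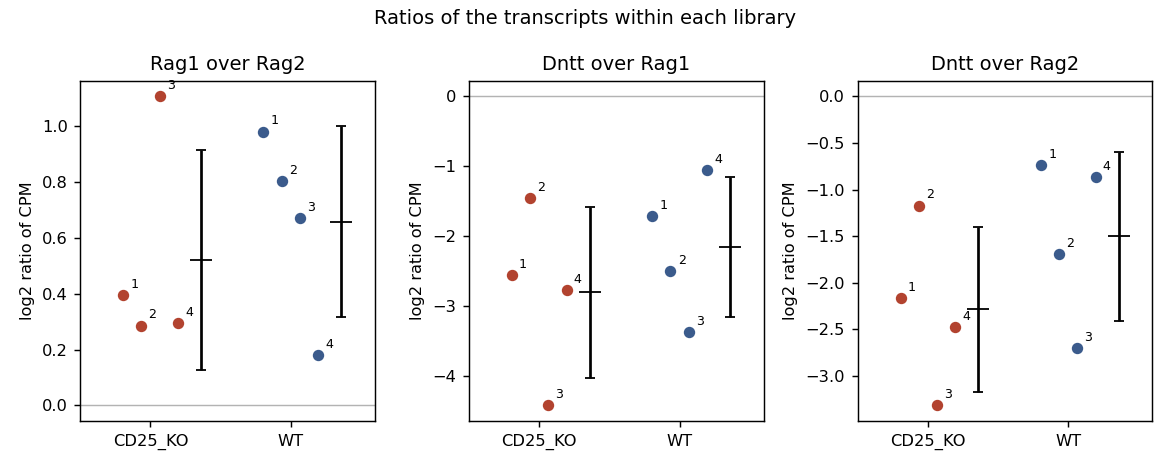
Log2 ratios of CPM for the 3 pairs of genes in each library (points with replicate numbers; bars, mean and SD; grey line, equal CPM). Labelled knockout 3 has the highest Rag1 to Rag2 ratio, 1.11, and the lowest Dntt to Rag1 ratio, -4.42.

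Over the 8 libraries no pair of the 3 transcripts had a correlation that passed the exact test. For Rag1 and Rag2, Pearson's r of log2 CPM was 0.46 (exact permutation p = 0.256) and Spearman's rho 0.52 (exact permutation p = 0.197). Leaving out labelled knockout 1 and wild type 1, the libraries farthest from the median of Rag1, r was 0.21, and among deviations from the group means it was 0.27. For Rag1 and Dntt, r was -0.08 (exact permutation p = 0.844) and rho 0.10 (exact permutation p = 0.840), r without the same libraries -0.58, and r of the deviations -0.41. For Rag2 and Dntt, r was 0.42 (exact permutation p = 0.301) and rho 0.21 (exact permutation p = 0.619), and the sign turned to -0.40 without labelled knockout 1 and 3, so this value rested on those libraries; r of the deviations was 0.17. Adjusted over the 3 pairs, the exact p for r was 0.452 for both pairs with Rag2 and 0.844 for Rag1 with Dntt, and for rho it was 0.590 for Rag1 with Rag2 and 0.840 for both pairs with Dntt.

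The genes whose log2 CPM over the 8 libraries was most like each member were sought among 8788 named genes averaging 5 CPM or more, and are given as a description. For Dntt the 3 highest were all surrogate light chain genes: Igll1 (r = 0.98), Vpreb1 (r = 0.98) and Vpreb2 (r = 0.97), followed by the GTPase gene Gimap4 (r = 0.96) and the carbonic anhydrase gene Car2 (r = 0.96). Vpreb1 and Vpreb2 are near-identical copies and fragments that map to several places were counted at each, so these 2 are uncertain as separate measurements. For Rag1 the highest were Golga3, Heatr5b, Mdm4, Zfp407 and Copg1 (each r = 0.97), none of them a gene of recombination. For Rag2 they were Uevld (r = 0.99), Crbn (r = 0.98), Anapc10 (r = 0.98), Zfp729a (r = 0.97) and Crnkl1 (r = 0.97), so no gene stood in more than 1 of these lists.

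Igll1 had 75.1, 159, 38.8 and 72.9 CPM in labelled knockout libraries 1 to 4, against 206, 153, 88.6 and 204 CPM in wild type libraries 1 to 4. As for Dntt, labelled knockout 3 was lowest, labelled knockout 2 lay near wild type 2, and wild type 3 was the lowest wild type library. Its log2 fold change was -0.91 ± 0.40 (SE; edgeR adjusted p = 0.393). The ratio of Dntt to Igll1 CPM was 0.463, 0.503, 0.416 and 0.513 in labelled knockout libraries 1 to 4, against 0.576, 0.441, 0.344 and 0.491 in wild type libraries 1 to 4, with means of 0.474 ± 0.0441 in the libraries labelled knockout and 0.463 ± 0.0970 in wild type (SD, n = 4 each). The highest ratio was 1.68 times the lowest, while Dntt itself spanned 7.35 times and Igll1 5.31 times. Igll1 was chosen for its likeness to Dntt, so this ratio is described and not tested.

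**Figure D4:**
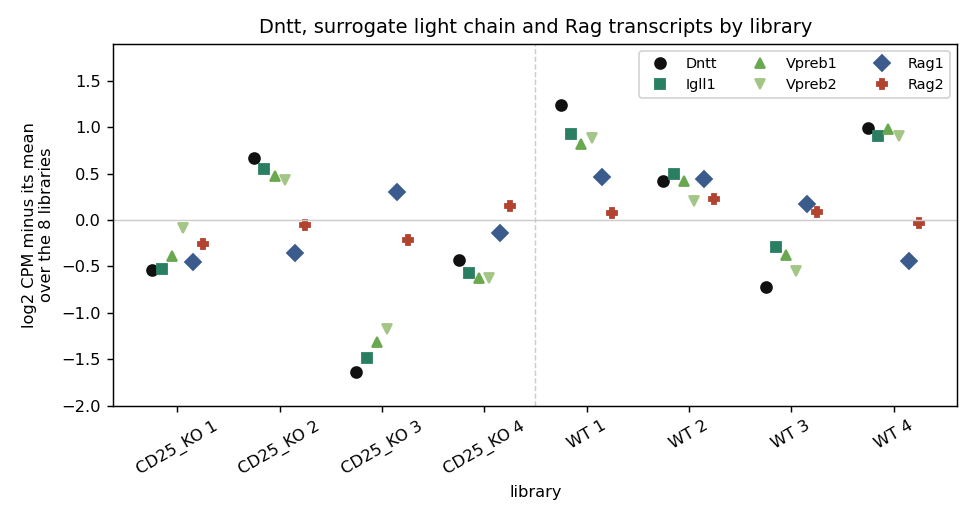
Log2 CPM of Dntt, the surrogate light chain genes Igll1, Vpreb1 and Vpreb2, and Rag1 and Rag2, each minus its own mean over the 8 libraries; libraries labelled CD25_KO stand left of the dashed line and WT libraries right of it. Dntt and the surrogate light chain genes lie on the same side of their means in each library, lowest in labelled knockout 3, where Rag1 stands above its mean.

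Set against lists of B cell stage markers, 11 of the pro-B stage and 7 of small pre-B and later stages, each member had a different nearest marker over the 8 libraries. For Rag1 it was Il2ra (r = 0.89), which marks small pre-B cells in the mouse, followed by Kit (r = 0.73) at its low level. For Rag2 it was Il7r, the interleukin-7 receptor chain (r = 0.82), with the transcription factor genes Ebf1 (r = -0.85) and Sox4 (r = -0.84) at the other end. For Dntt it was Igll1, then Vpreb1 and Erg, a stem and progenitor factor (r = 0.82), and Sox4 was most opposed (r = -0.72). Il2ra itself had r = 0.24 with Rag2 and r = -0.41 with Dntt. These values share libraries and depth and carry no test.

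The products that work with the recombinase were described next, from a list of 11 partners of RAG1 and RAG2. All 11 were tested and 0 passed, 0 had an unadjusted p under 0.05 with higher and 4 with lower values in the libraries labelled knockout (36.4%, against 12.6% of all genes), and the median log2 fold change was -0.25 against 0.00 over all genes. Those 4 were Hmgb1 and Hmgb2, the DNA-bending cofactors of RAG cutting, Rbx1, a RING subunit shared by cullin ubiquitin ligases, and Skp2, part of the ligase that marks RAG2 for destruction as cells enter S phase. Hmgb2 had 2188 ± 778 CPM in the libraries labelled knockout and 3281 ± 251 CPM in wild type, with a log2 fold change of -0.58 ± 0.23 (SE). Skp2 had 39.3 ± 12.6 CPM in the libraries labelled knockout and 56.8 ± 5.59 CPM in wild type, with its lowest value, 21.1 CPM, in labelled knockout 3, the library with the lowest Dntt. Hmgb1 had a log2 fold change of -0.43 ± 0.16 and Rbx1 one of -0.30 ± 0.12 (SE). The edgeR adjusted p was 0.393 for Skp2 and 0.391 for the other 3.

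The partners of TdT and its related polymerases numbered 10, all tested. None passed, 1 had an unadjusted p under 0.05 with higher and 3 with lower values in the libraries labelled knockout (40.0%, against 12.6% of all genes), and their median log2 fold change was -0.14. The higher one was Polm, which encodes polymerase mu, the closest relative of TdT and itself an end joining enzyme. Polm had 381, 277, 384 and 305 CPM in labelled knockout libraries 1 to 4, against 168, 138, 179 and 273 CPM in wild type libraries 1 to 4, a log2 fold change of 0.83 ± 0.20 (SE; edgeR adjusted p = 0.391). Its groups did not overlap, as for 6.79% of all genes tested, although wild type 4 came within a few CPM of labelled knockout 2. Of the lower ones, Pcna, the sliding clamp of replication, had a log2 fold change of -0.51 ± 0.18, Xrcc5, which encodes the Ku80 end-binding subunit, one of -0.32 ± 0.12, and Dnttip2, named for its binding to TdT in human cells, one of -0.25 ± 0.09 (SE). The groups did not overlap for Pcna, Xrcc5 and Dnttip2 either.

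The list of 12 end joining factors, which seal the ends that RAG leaves, shared 6 genes with the list before it (Xrcc5, Xrcc6, Xrcc4, Lig4, Polm and Poll), 6 of its 12 and 6 of the 10 there. None of its 12 tested members passed, and Polm and Xrcc5 were the only 2 with an unadjusted p under 0.05 (16.7%, near the 12.6% of all genes), with a median log2 fold change of -0.10 over the list. Next came Atm, the kinase that senses the breaks, with 37.2 ± 4.59 CPM in the libraries labelled knockout and 48.3 ± 10.97 CPM in wild type, and Paxx, a Ku-binding factor, with 58.1 ± 7.09 CPM in the libraries labelled knockout and 50.5 ± 5.24 CPM in wild type. Lig4, the ligase of the final step, had a log2 fold change of -0.14 ± 0.12, and Dclre1c, which encodes the hairpin opener Artemis, one of 0.02 ± 0.12 (SE).

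Of 26 transcription factors with a described role in Rag transcription, 25 were tested and 0 passed. An unadjusted p under 0.05 was found for 6 with higher and 0 with lower values in the libraries labelled knockout (24.0%, against 12.6% of all genes, 5.53% higher and 7.11% lower), and the median log2 fold change was 0.31. Foxp1, a forkhead factor that acts on the Rag enhancer, had 917 ± 139.8 CPM in the libraries labelled knockout and 673 ± 78.7 CPM in wild type. Foxo1, the activator of both Rag genes, had 129, 97.0, 136 and 85.9 CPM in labelled knockout libraries 1 to 4, against 85.1, 81.5, 82.7 and 77.6 CPM in wild type libraries 1 to 4. The labelled knockout libraries with the most Foxo1 were 1 and 3, of which library 1 had the least Rag1 and library 3 the most Rag1 of that group. Ebf1, a B lineage commitment factor, had a log2 fold change of 0.40 ± 0.13 and Satb1, a chromatin organiser known at the Rag locus from mouse thymocytes, one of 0.65 ± 0.23 (SE; edgeR adjusted p = 0.391 for each of these 4 factors). The log2 fold changes of these 4 factors were positive and those of Rag1, Rag2 and Dntt negative, and none passed.

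Of 13 genes of the signals that act on Rag transcription, 13 were tested and 0 passed, 3 had an unadjusted p under 0.05 with higher and 0 with lower values in the libraries labelled knockout (23.1%, against 12.6% of all genes), and the median log2 fold change was 0.40. Stat5a and Stat5b, which carry the interleukin-7 signal that restrains Rag transcription, had log2 fold changes of 0.40 ± 0.16 and 0.59 ± 0.24, Syk, the kinase of the pre-B cell receptor, one of 0.25 ± 0.09, and Jak1 one of 0.47 ± 0.28 (SE). Il7r had 539 ± 43.0 CPM in the libraries labelled knockout and 547 ± 21.1 CPM in wild type.

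Among 6 neighbours of the Rag genes, all tested, 0 passed and 1 had an unadjusted p under 0.05 (16.7%, near the 12.6% of all genes). This was Traf6, a signalling adaptor, with 139 ± 21.2 CPM in the libraries labelled knockout and 102.5 ± 27.8 CPM in wild type, a log2 fold change of 0.44 ± 0.19 (SE), opposite in sign to those of Rag1 and Rag2. Prr5l, Ldlrad3 and Trim44, the next by unadjusted p, had log2 fold changes of -0.62 ± 0.39, 0.16 ± 0.16 and 0.16 ± 0.13. Of 6 neighbours of Dntt, 5 were tested and none passed or had an unadjusted p under 0.05; Blnk had a log2 fold change of 0.12 ± 0.11, Zfp518a one of -0.45 ± 0.21, Ccnj one of 0.20 ± 0.15 and Tm9sf3 one of 0.16 ± 0.18 (SE). Over the 7 lists together 75 of 77 genes were tested and 0 passed in the edgeR test, 18 of them with an unadjusted p under 0.05 (24.0%, against 12.6% of all genes). Of these 18, 11 had higher and 7 had lower values in labelled knockout libraries. Of the 2388 such genes over the whole test, 1045 had higher and 1343 lower values. The lists were chosen with earlier results of these data known, so these counts are given as a description. Without wild type library 4, 7 of the 75 list genes tested passed, all with higher values in the libraries labelled knockout: Ccnd3, Cul4a, Irf8, Polm, Spi1, Stat5b and Tcf3. Nearly all genes called in that fit shared this direction, with 358 higher and 5 lower among 363 called of 19506 tested.

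**Figure D5:**
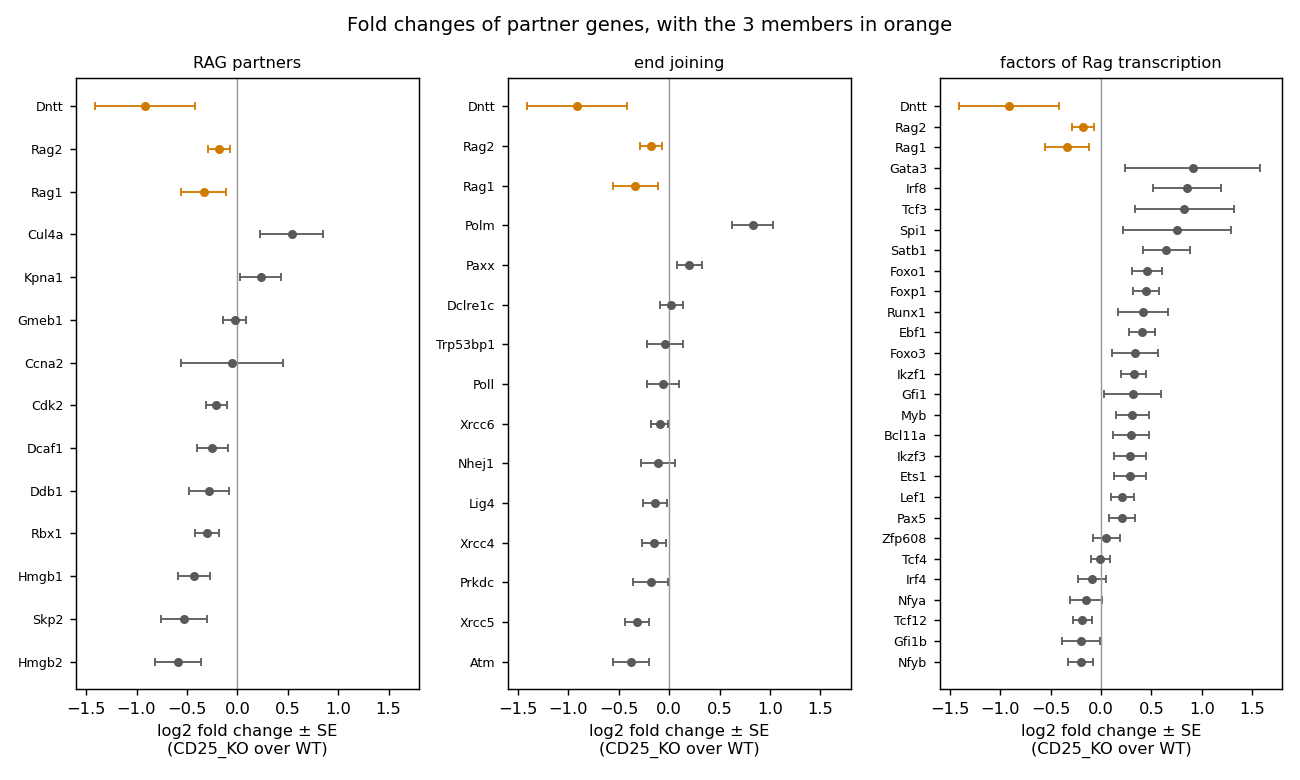
Log2 fold changes (labelled CD25_KO over WT) with SE from the edgeR fit for partners of RAG1 and RAG2, end joining factors, and transcription factors of the Rag genes; Rag1, Rag2 and Dntt stand in orange at the top of each panel. The partners lie mostly left of 0 and the transcription factors mostly right of it, and no gene passed.

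Thymocytes also express the 3 genes, and 7 of 9 T cell markers (Cd3e, Cd3d, Cd3g, Cd8a, Cd8b1, Thy1 and Ptcra) lay under 1 CPM in every library. Of the other 2, Cd4 had 0.321 to 1.56 CPM in the libraries labelled knockout and 0.287 to 0.723 CPM in wild type, and Lck, a kinase gene, had 19.8 to 29.8 CPM in the libraries labelled knockout and 27.1 to 35.2 CPM in wild type. Lck made up most of the summed list, which was 20.7 to 32.0 CPM in the libraries labelled knockout and 28.4 to 37.4 CPM in wild type. Markers of plasmacytoid dendritic cells, some of which carry Rag and Dntt transcripts, summed to 276 to 294 CPM in the libraries labelled knockout and 257 to 326 CPM in wild type, most of it Tcf4, which B cells also express. Other lists differed more: 6 NK cell markers summed to 7.91 to 26.5 CPM in the libraries labelled knockout and 30.3 to 41.6 CPM in wild type, 6 monocyte and macrophage markers to 16.8 to 42.6 CPM in the libraries labelled knockout and 41.4 to 66.1 CPM in wild type, 8 neutrophil markers to 116 to 469 CPM in the libraries labelled knockout and 246 to 544 CPM in wild type, and 6 erythroid markers to 140 to 1177 CPM in the libraries labelled knockout and 1501 to 4435 CPM in wild type. Mitochondrial genes took 2.54 to 3.30% of the counts in the libraries labelled knockout and 3.18 to 3.45% in wild type. The part of these cells and measures in the values of Rag1, Rag2 and Dntt was not tested.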

How the data were processed

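The deposited table holds raw counts of fragments per gene for 8 libraries, made by the authors with featureCounts 2.0.1 over the exons of GENCODE M25 (paired mode, multi-mapping alignments counted, no strand option), per the file headers. The submitters' processing notes name STAR 2.7.7a, GATK 4.1.9.0 and the build mm10. The summed exon length per gene (unit: other) is from the deposited table, per the file headers, and was used for levels per kb. RNA was taken with Trizol and prepared with the SMARTER mRNA-Seq kit, per the labels' protocols. Columns of other samples numbered 0.

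Genes were named with GENCODE M21 (55227 of 55487 identifiers), filtered with filterByExpr, scaled with TMM and tested for genotype alone in edgeR 4.0.16 under R 4.3.3 (robust glmQLFit, then a two-sided glmQLFTest). P-values were adjusted by Benjamini-Hochberg across the 18884 genes, with a threshold of 0.05. DESeq2 1.42.0 and limma 3.58.1 (voom) were alternatives. Log2 CPM used a prior count of 2. Ratios and correlations used exact permutation tests over libraries (scipy 1.17.1). Replicates were checked for repeated deposits over 12 pairs within groups. Chi-square per degree of freedom was 30.4 for labelled knockout 2 with 4 and 40.7 for wild type 1 with 3, so these were not repeats. The check gave no value for the remaining pairs and could not decide on them. The edgeR step was tested on simulated data. Promoter windows are from RefSeq (GRCm38.p6); 3 of 3 members matched.

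The members and lists were chosen with earlier results of these data known. From each list the members past the test were named, otherwise the 4 with the smallest unadjusted p; Lig4, Dclre1c, Il7r, Polm by library, Foxo1 by library and the called genes without wild type 4 were added after their values were seen, as was Igll1 by library. For likeness the 5 highest genes were named. One marker gene is not reported here.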

Additional observations from a re-analysis of the deposited data

Results flagged for a closer look

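The log2 ratio of Rag1 to Rag2 in the labelled knockout group stood out in 1 library. Labelled knockout 3 had 1.11, against 0.29 to 0.39 in labelled knockout 1, 2 and 4, and the gap to its nearest neighbour was 0.868 of the whole range of the group, above the 95% critical value for 4 samples. It was the only one of 12 groups of values checked (3 genes and 3 ratios in both groups) to do so, and chance flags about 1 in 20. The same library had the highest Rag1 (347 CPM) and the lowest Dntt (16.1 CPM) of its group. The cause was not tested.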

How the results depend on the processing

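Rag1, Rag2 and Dntt kept the sign of their log2 fold change and stayed short of the adjusted p threshold in all 18 alternatives to the edgeR fit. Their unadjusted p did fall under 0.05 in some alternatives. The lowest in edgeR was 0.0153 for Dntt (replicate block), 0.0178 for Rag1 (without wild type 4) and 0.0318 for Rag2 (without labelled knockout 4). With 1 library left out, Rag1 ran from -0.51 to -0.21, Rag2 from -0.27 to -0.10 and Dntt from -1.40 to -0.64, with adjusted p from 0.141 to 0.836, 0.329 to 0.842 and 0.301 to 0.734. Over the other 10 alternatives (scaling, filters, DESeq2, limma-voom, no robust estimation, replicate block, genes left out, GC trend removed) Rag1 ran from -0.44 to -0.26, Rag2 from -0.28 to -0.13 and Dntt from -0.99 to -0.47. The number of genes called, 0 in edgeR, was 6 with DESeq2, and leaving out single libraries gave 0 to 363, with 363 once wild type 4 was removed. Genes at an unadjusted p under 0.05 numbered 2388 in edgeR and 3763 in limma-voom, and in edgeR 1195 after removing labelled knockout 1, 1205 after labelled knockout 3, 1208 after wild type 2, 1395 after wild type 3 and 4277 after wild type 4. With the replicate block 0 genes passed, and Dntt had -0.98 ± 0.31 (SE, adjusted p = 0.274), Rag1 -0.32 and Rag2 -0.19. The labels give same-numbered libraries a shared number and no other link. Their deviations correlated at 0.01, 0.64, 0.25 and -0.03. Labelled knockout 1 had 0.645 with wild type 4 and -0.656 with wild type 2, which bear other numbers. Values as large arose without a shared number, so this check could not decide whether libraries were paired. With 1 library left out the difference in log2 ratio ran from -0.33 to -0.03 for Rag1 over Rag2, from -1.09 to -0.10 for Dntt over Rag1 and from -1.18 to -0.44 for Dntt over Rag2, where 3 against 4 libraries allow no exact p below 0.0571. The correlation of Rag2 and Dntt reversed to -0.40 without labelled knockout 1 and 3. The cause was not tested. Counting error was at most 3.52% of a value. The effect of depth was not tested.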
